A study of Mus musculus with 2 samples.

Results

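Blood endothelial cells line the lumen of the aorta, and here they are 1403 of 12848 deep cell barcodes in droplet single-cell RNA-seq of mouse aorta. A deep barcode had at least 3000 unique molecular identifiers (UMIs, each counted as 1 captured transcript), at least 1000 genes and at most 20% mitochondrial UMIs. An endothelial barcode had at least 3 of Pecam1, Cdh5, Cldn5, Egfl7 and Ptprb detected, with a summed level of at least 15 per 10000 UMIs. It also had at most 1 of the lymphatic genes Prox1, Mmrn1 and Reln, at most 1 UMI of the venular gene Ackr1, and at most 2 UMIs of the macrophage genes C1qa and Cd68 together. The barcodes were thus selected on measured levels of these genes, so their levels against other barcodes are descriptions and were not tested.

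The study profiled 2 samples, labelled HFD and MSC_ITGB3, with 1 sample of each. Both came from aortas of ApoE-/- mice aged 20 weeks, a strain without apolipoprotein E that develops atherosclerosis, and the series text describes mice fed HFD that had or had not been given MSC_ITGB3. The sources used here do not say how many animals went into a sample. The deposited matrix holds 2 libraries, told apart by the barcode suffix, and nothing in the labels or headers ties a suffix to a sample. They are called library 1 and library 2, neither is given a group, HFD was not compared with MSC_ITGB3, and with 1 library each no p-value was computed. Intervals are exact, at 95%, and cover the error of counting UMIs or barcodes, not how animals vary. Apoe itself stood at 33.7 and 35.9 CPM (UMIs of a gene per 1000000 summed UMIs) in endothelial barcodes of libraries 1 and 2, and with no wild-type sample and a 3' tag that may lie outside the deleted part this checks nothing.

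Endothelial cells form a single sheet held together by adherens and tight junctions, and they set vessel tone through nitric oxide, prostacyclin and endothelin. They store von Willebrand factor and P-selectin for haemostasis and leukocyte capture, and disturbed flow and lipid exposure are known to raise their adhesion molecules in atherosclerosis. Arterial endothelium is marked by connexins and Notch ligands, and the endothelium of large arteries is set apart from capillary endothelium by matrix genes and by low levels of fatty acid handling genes.

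Promoters of 3 endothelial genes are shown because members of the ETS factor family, such as Erg and Fli1, are known to act in endothelium through sites with a GGAA core. Each window is the 250 bases before a RefSeq start site in GRCm38.p6, written 5′ to 3′ on the gene's strand, with each GGAA, or TTCC for the other strand, in capitals. Of the 7 genes sought (the gate genes, Vwf and Cytl1), 3 were in the promoter table, and Egfl7 had 3 start sites, of which the first is shown.
Cldn5, chr16:18776597-18776846 (+): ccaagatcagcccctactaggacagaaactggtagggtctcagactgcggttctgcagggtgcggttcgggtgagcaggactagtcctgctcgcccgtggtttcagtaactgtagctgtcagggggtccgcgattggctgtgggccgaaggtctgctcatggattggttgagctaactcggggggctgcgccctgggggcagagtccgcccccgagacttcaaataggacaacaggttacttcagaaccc
Egfl7, chr2:26580833-26581082 (+): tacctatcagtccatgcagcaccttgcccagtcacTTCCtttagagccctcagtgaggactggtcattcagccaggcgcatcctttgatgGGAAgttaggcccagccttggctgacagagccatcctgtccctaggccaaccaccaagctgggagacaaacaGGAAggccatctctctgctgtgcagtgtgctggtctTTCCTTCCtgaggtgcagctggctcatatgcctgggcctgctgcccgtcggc
Cytl1, chr5:37735269-37735518 (+): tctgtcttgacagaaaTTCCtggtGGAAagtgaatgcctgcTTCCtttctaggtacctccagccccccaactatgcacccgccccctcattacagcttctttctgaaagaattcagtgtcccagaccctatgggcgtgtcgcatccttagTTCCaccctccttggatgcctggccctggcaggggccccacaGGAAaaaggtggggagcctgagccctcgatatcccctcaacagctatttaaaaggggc
The Cldn5 window held 0 such matches, the first Egfl7 window 5 and the Cytl1 window 5. The remaining Egfl7 windows, not shown, held 3 and 1. Over 32851 promoter windows of this length the median was 3, 93.4% held at least 1 and 18% held 5 or more, so the matches are a description of these letters only.

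Endothelial barcodes made up 1106 of 6315 deep barcodes in library 1, or 17.51% (16.58 to 18.47, Clopper-Pearson), and 297 of 6533 in library 2, or 4.546% (4.054 to 5.08). Before the lymphatic, venular and macrophage limits, 1253 and 321 barcodes passed the gate. The lymphatic limit was failed by 18 and 7 of these, the Ackr1 limit by 56 and 6, and the macrophage limit by 78 and 11. Barcodes that passed the gate but failed a limit are counted among the other deep barcodes, which are thus not free of endothelial cells. Median depth of the endothelial barcodes was 8418 UMIs in library 1 and 6489 in library 2, beside 8836 and 6012 UMIs in the other deep barcodes. No endothelial barcode sequence was shared between the libraries. The summed UMIs behind the levels below were 14119475 in library 1 and 3092600 in library 2.

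By the rule itself at least 3 gate genes were present, and all 5 were detected in 65.91% of the endothelial barcodes of library 1 and in 61.28% of library 2, at a median gate sum of 53.03 and 41.67 per 10000 UMIs. The label was checked with Vwf, which encodes von Willebrand factor and was no part of the gate. Vwf stood at 1122 CPM in library 1 and 1008.5 in library 2. In the other deep barcodes it stood at 39.3 and 9.17 CPM, and in barcodes of 10 to 100 UMIs, which hold mostly free RNA, at 180 and 92.2 CPM. After each barcode was thinned to 3000 UMIs, a Vwf UMI was found in 80.29% (77.82 to 82.6) and 75.76% (70.47 to 80.52) of endothelial barcodes. The same share was 6.892% and 3.319% in the other deep barcodes. Vwf lies on chromosome 6 at 125546774 to 125686679 (GRCm38, plus strand).

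The threshold cuts through a slope and not a gap. Just inside it, at gate sums of 15 to 18, were 57 and 26 barcodes with Vwf at 226 and 156 CPM and the fibroblast gene Dcn at 9125 and 3495 CPM. Just outside it, at 12 to 15, were 44 and 33 barcodes with Vwf at 137 and 314 CPM and Dcn at 8188 and 4374 CPM. Barcodes on either side of the limit therefore held little Vwf and much Dcn, compared with 1550.3 and 1490.0 CPM of Dcn over all endothelial barcodes.

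RNA of other cell types was present in the gate. The summed level of 7 smooth muscle markers was 1589 CPM in endothelial barcodes of library 1 and 2942 in library 2, against 11697 and 15761 in the other deep barcodes. That of 7 fibroblast markers was 3531 and 4271 CPM, against 20541 and 19729. Markers of 8 macrophage genes summed to 83.6 and 86.3 CPM, against 3175 and 1666, and those of 6 lymphatic genes to 43.3 and 41.4 CPM, against 96.6 and 71.5. The rule limited C1qa and Cd68 of the macrophage list and Prox1, Mmrn1 and Reln of the lymphatic list. The macrophage and lymphatic sums are thus low in part by selection. Markers of chondrocytes summed to 42.0 and 106 CPM, against 624 and 2761, those of pericytes to 80.1 and 219.6 CPM, against 869 and 1121, and those of T cells, B cells and Schwann cells to at most 26.8 CPM each. Neutrophil markers summed to 187 and 18.4 CPM and erythroid markers to 180 and 5.50 CPM. Adipocyte markers (4 genes, 3 at 0 in both libraries) and mesothelial markers (4 genes, 2 at 0) were below 1 CPM in sum. The clusters described further down separate the barcodes that carry most of this RNA.

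The genes that stood highest over the other deep barcodes were general and arterial endothelial genes. Of 3400 genes at 50 CPM or more in the endothelial barcodes of both libraries, 201 (5.91%) were at least 4-fold above the other deep barcodes in both, after 5 CPM was added to each side. Ptprb, a receptor phosphatase of endothelial junctions, headed the list at 1261 CPM in library 1 and 1143 in library 2, against 36.2 and 9.99 CPM, a fold of 30.8 and 76.6. Cldn5, the tight junction claudin of endothelium, stood at 859.5 and 857 CPM, against 24.98 and 9.12. Egfl7, a secreted endothelial factor, stood at 795 and 716 CPM, against 28.6 and 8.21. Pecam1, the CD31 adhesion molecule of endothelial junctions, stood at 2435 and 2129 CPM, against 104 and 56.3. Cdh5, the VE-cadherin of adherens junctions, stood at 721 and 698 CPM, against 29.0 and 7.41. Since the gate used these 5 genes, their folds restate the rule.

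**Figure D1:**
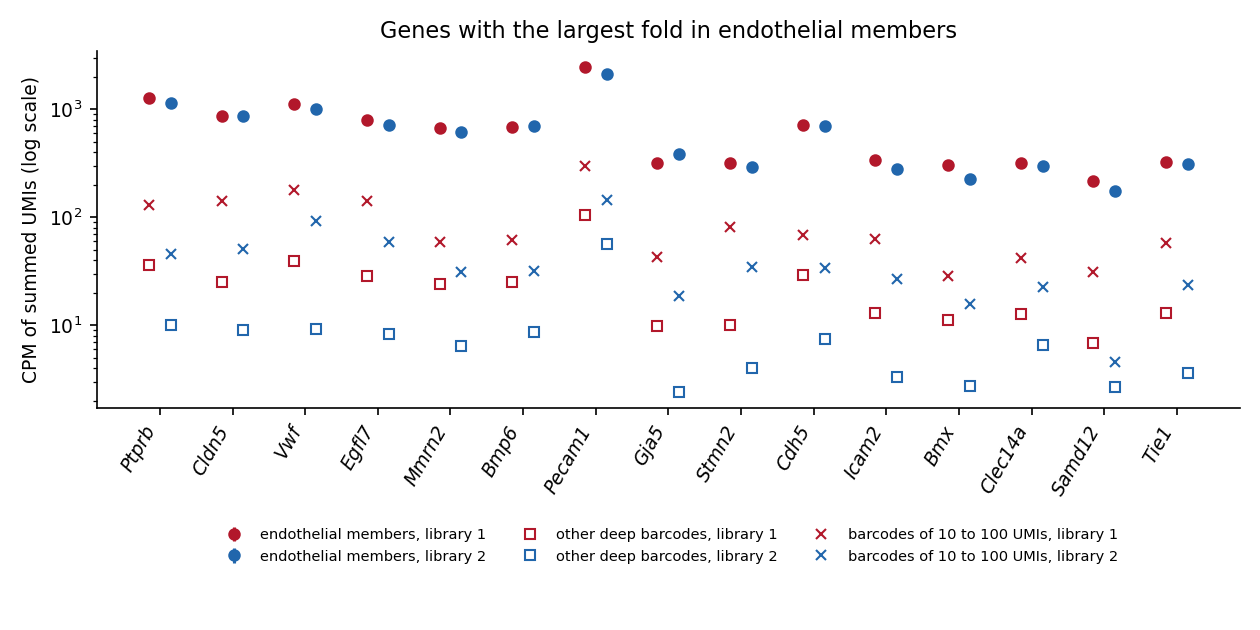
Level (CPM of summed UMIs, log axis) of the 15 genes with the largest fold in endothelial barcodes. Filled circles are endothelial barcodes with exact 95% Poisson intervals, squares the other deep barcodes and crosses barcodes of 10 to 100 UMIs, with library 1 in red and library 2 in blue. Every circle lies above the square and cross of its own library, and the squares of library 2 lie below those of library 1.

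Genes outside the gate followed the same pattern. Mmrn2, a matrix protein of the endothelial surface, stood at 667 and 610.2 CPM in endothelial barcodes, against 24.1 and 6.49 in the other deep barcodes. Bmp6, a BMP ligand that liver endothelium is known to use for iron regulation, stood at 689 and 693 CPM, against 25.2 and 8.57. Icam2 and Clec14a, both endothelial surface proteins, stood at 340.0 and 281 CPM and at 321 and 295 CPM. The receptor kinases Tie1 and Tek, which bind or modulate angiopoietins, stood at 324 and 309 CPM and at 332 and 306 CPM. Stmn2, a tubulin-binding protein best known from neurons, was at 317 and 293 CPM, against 10.1 and 4.01. Samd12 was at 215 and 175 CPM, against 6.92 and 2.66. In every one of these genes the other deep barcodes of library 2 were lower than those of library 1, while the endothelial levels of the libraries differed by at most 1.23-fold, for Samd12. Among the 30 general endothelial genes listed, 26 reached 50 CPM in both libraries and 22 of those passed 4-fold. The list's median log2 fold over the other deep barcodes was 3.58 in library 1 and 4.21 in library 2, beside 0.18 and 0.19 for all measured genes. Erg and Fli1, the ETS factors named above, stood at 189 and 190.1 CPM, against 45.2 and 68.9, and at 174 and 212 CPM, against 41.0 and 38.5. Kdr, the main VEGF receptor, was low at 30.5 and 36.5 CPM, against 3.91 and 1.91.

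Arterial genes were high and capillary genes low. Of 20 arterial genes, 15 reached 50 CPM in both libraries and 9 passed 4-fold, with a list median log2 fold of 2.61 and 2.87. Gja5 and Gja4 encode the arterial connexins 40 and 37. Gja5 stood at 318 and 386 CPM in endothelial barcodes, against 9.95 and 2.42 in the other deep barcodes, and Gja4 at 431 and 384 CPM, against 37.0 and 19.2. Bmx, a kinase of arterial endothelium, stood at 302 and 228 CPM, against 11.2 and 2.77. Mecom, a transcription factor of arterial endothelium, was at 1238 and 1245 CPM, against 249 and 241. Fbln5, an elastic fibre protein, was at 1924 and 1555 CPM, against 546 and 498. The Notch ligand Dll4 was at 69.8 and 60.1 CPM, against 2.64 and 1.11. The chemokine Cxcl12 and the Notch target Hes1, also on the list, were lower in endothelial barcodes. Cxcl12 stood at 292 and 293 CPM, against 409 and 387, and Hes1 at 165 and 210.5 CPM, against 259 and 287 CPM.

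Of 15 capillary genes, only Fabp4 and Sgk1 reached 50 CPM, and neither was high over the other deep barcodes. Fabp4, a fatty acid carrier, stood at 343 and 429 CPM, against 332 and 267, and at 345 and 262 CPM in free RNA. Sgk1, a kinase, stood at 261 and 169 CPM, against 235 and 161. Cd36, the fatty acid translocase of capillaries, was found in 1.175% (0.6273 to 2.002) and 1.01% (0.2088 to 2.923) of thinned endothelial barcodes, against 2.822% and 1.62% of the other deep barcodes, which is no more than background. Nr2f2, the venous transcription factor, was found in 7.685% and 10.77% of thinned endothelial barcodes, against 22.37% and 25.96%. Nr2f2 was not typical of the venous list, of which 6 of 10 genes reached 50 CPM in both libraries and 3 passed 4-fold, with a median log2 fold of 2.17 and 2.40. Lrg1, a secreted glycoprotein, stood at 621 and 498 CPM, against 76.8 and 29.3. Slco2a1, a prostaglandin transporter, stood at 566 and 499 CPM, against 103 and 59.4, and Selp, which encodes P-selectin, at 536 and 374 CPM, against 83.8 and 48.5.

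Large-artery genes differed among themselves, some high over the other deep barcodes and some not. Cytl1, a small secreted protein, was at 2783 and 2064 CPM in endothelial barcodes, against 499.6 and 136 in the other deep barcodes. It was found in 85.62% and 82.49% of thinned endothelial barcodes, against 22.06% and 14.82%. Gkn3, a gastrokine also known from brain arteries, was at 187 and 107 CPM, against 8.11 and 0.939. Bmp4 stood at 399 and 417 CPM, against 45.8 and 35.6, and Palmd, a palmdelphin, at 201 and 207 CPM, against 14.4 and 8.11. Eln, which encodes elastin, was at 3568 and 4063 CPM, against 1183 and 1329. Mgp, the matrix Gla protein that inhibits calcification, was at 17246 and 15942 CPM, and stood nearly as high in the other deep barcodes at 16458 and 14208 CPM and in free RNA at 17115 and 13739 CPM. Its level in endothelial barcodes thus did not stand apart. In all, 14 of 15 large-artery genes reached 50 CPM in both libraries and 6 passed 4-fold. Fn1 and Bgn, matrix genes of the same list, were lower in endothelial barcodes at 1793 and 2447 CPM and at 2670.4 and 2318 CPM, against 3294 and 3820 CPM and 3562 and 3865 CPM.

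Among genes of vessel tone, junctions and haemostasis some were high over the other deep barcodes and some not. Nos3, the endothelial nitric oxide synthase, stood at 230.4 and 256 CPM, against 9.03 and 3.59 in the other deep barcodes. Edn1, which encodes endothelin-1, stood at 603 and 406 CPM, against 32.9 and 16.5. Its processing enzyme Ece1 was at 1140 and 955 CPM, against 122 and 77.6, and Ace, the angiotensin-converting enzyme, at 538 and 399.7 CPM, against 107 and 77.3. Ramp2, the adrenomedullin receptor partner, was at 1378 and 1080 CPM, against 94.2 and 43.0. Ptgis, the prostacyclin synthase, went the other way at 279 and 273 CPM, against 511 and 583. Of 14 vasoactive genes, 9 reached 50 CPM in both libraries and 5 passed 4-fold, and of 15 junction genes 12 did and 7 passed. In the coagulation list, 6 of 10 genes reached 50 CPM in both libraries and 2 passed 4-fold. Procr, the endothelial protein C receptor, stood at 271 and 328 CPM, against 47.1 and 20.4, while Anxa5, an annexin that binds phospholipid, was lower at 437 and 405 CPM, against 547 and 541.

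Other lists lay between these. Caveolae genes, which form the membrane pits of endothelium, had 8 of 8 genes at 50 CPM in both libraries and 2 past 4-fold, with Plvap, the diaphragm protein of fenestrae and caveolae, at 520.0 and 375 CPM, against 49.9 and 36.9. Of the glycocalyx list, Podxl, a sialomucin of the luminal surface, stood at 266 and 297 CPM, against 10.6 and 3.77, while the syndecan Sdc4 was lower at 171 and 229.6 CPM, against 363 and 371. Among 12 VEGF and angiopoietin genes 3 of 6 passed 4-fold, with the VEGF receptor Flt1 at 293 and 301 CPM, against 45.9 and 40.5. Among 12 Notch genes 2 of 5 passed, with Notch1 at 210.3 and 183 CPM, against 30.3 and 20.8, and among 14 TGF-beta and BMP genes 3 of 14 passed. Class I antigen genes H2-D1 and H2-K1, which resemble each other closely enough that their counts are uncertain, stood at 1552 and 1420 CPM and at 1189 and 1160 CPM, against 664 and 596.5 CPM and 386.5 and 379.6 CPM. None of the measured MHC, interferon, basement membrane, lipid or cycle genes passed 4-fold, and Sparc, a matrix protein of the basement membrane list, was lower at 3034 and 2954.5 CPM, against 5539 and 5922. Of 8 measured genes of flow response 1 passed, Nos3, while Klf2 stood at 275 and 363 CPM, against 146 and 132.

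Summed over all endothelial barcodes, genes of endothelial-to-mesenchymal change were not high against the other deep barcodes. Of 16 such genes, 12 were measured at 50 CPM in either library, 0 passed 4-fold and 8 were at least 2-fold below the other deep barcodes in both libraries, beside 158 of all 3846 measured genes (4.11%). The list's median log2 fold was -1.65 and -1.23. The other deep barcodes held far more smooth muscle and fibroblast marker RNA, as given above. This contrast therefore cannot tell whether such change was present in endothelial cells. Acta2, smooth muscle actin, stood at 795 and 1387 CPM in endothelial barcodes, against 5606 and 7751, and in free RNA at 4886 and 7234. Vim, the vimentin that endothelium also expresses, stood at 5256 and 4409 CPM, against 4119 and 3638. Snai1, Snai2 and Twist1, transcription factors of this change, were each at most 22.3 CPM in both libraries. Acta2 is 1 of the 7 smooth muscle markers summed above, so that sum moves with it by construction. The part of smooth muscle RNA in its level was not tested.

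**Figure D2:**
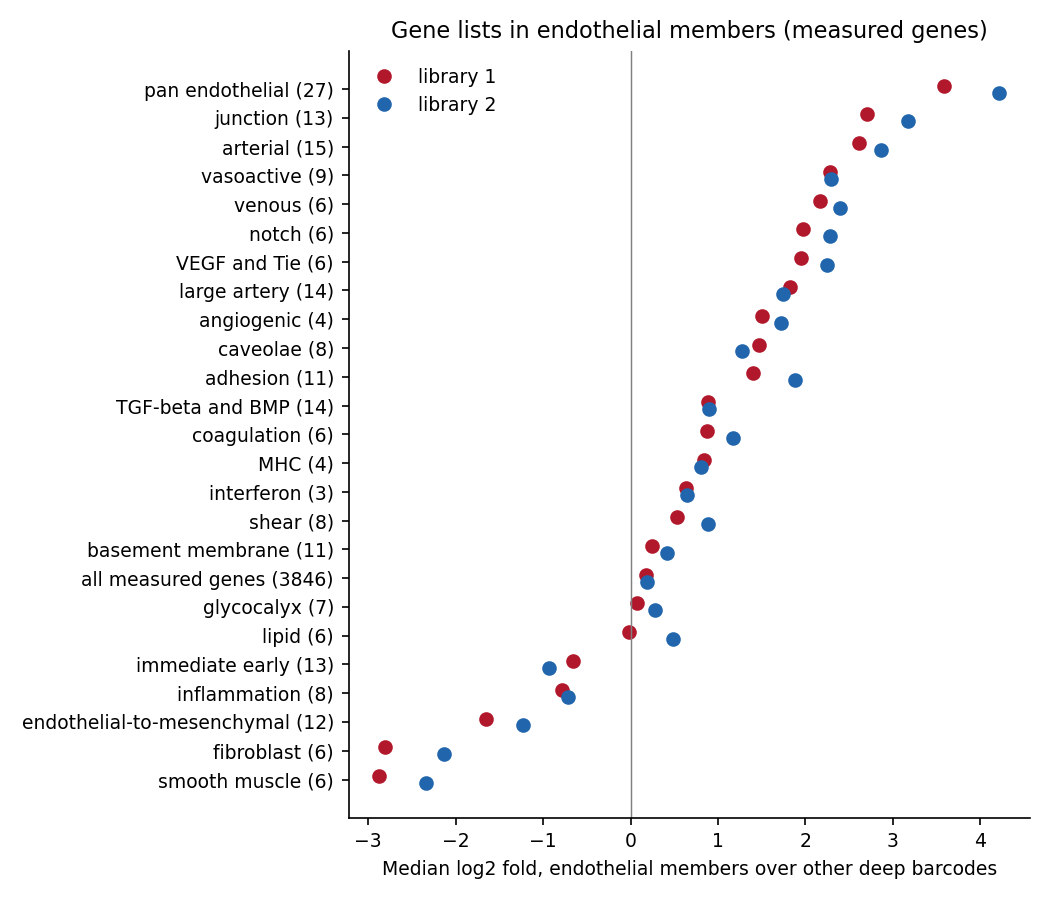
Median log2 fold of each gene list with at least 3 measured genes, the gate genes left out, in endothelial barcodes over the other deep barcodes, with the number of measured genes in brackets, library 1 in red and library 2 in blue. Lists are ordered by library 1, from 3.58 for general endothelial genes to -2.87 for smooth muscle markers, and all measured genes lie at 0.18 and 0.19.

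Within the endothelial barcodes, 16 clusters were found, and their defining genes are descriptions. In 7 of them no other cell type's marker list matched best, and these are called endothelial-led. They held 671 of 1106 endothelial barcodes in library 1, or 60.67% (57.72 to 63.56), and 147 of 297 in library 2, or 49.49% (43.67 to 55.33). Their median depth was 13342 and 11749 UMIs, against 4120 and 4117 UMIs in the other 9 clusters, which are called mixed. No doublet caller was run, and 2 cells in a droplet, 1 cell with free RNA and 1 cell of mixed character cannot be told apart here. The endothelial-led clusters had summed smooth muscle markers of 741 and 518 CPM and summed fibroblast markers of 1626 and 1295 CPM. These were lower than those of all endothelial barcodes given above, but the same marker lists set the mixed clusters apart. The lower sums thus follow in part from the definition.

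**Figure D3:**
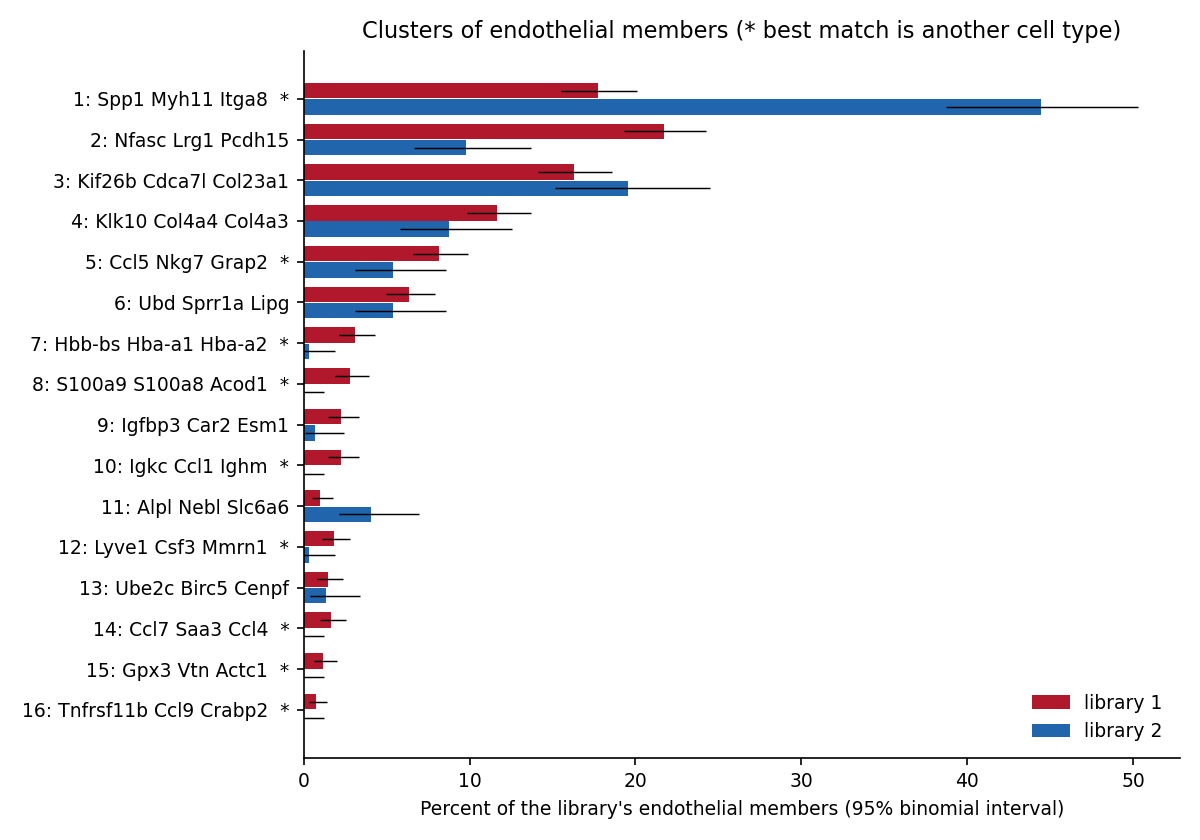
Share of each library's endothelial barcodes in each of 16 clusters (percent, with 95% binomial intervals), library 1 in red above library 2 in blue. Clusters are named by their 3 leading genes, and an asterisk marks those whose best-matching list was another cell type. The Spp1 Myh11 Itga8 cluster is the one with the widest gap, at 17.72% and 44.44%.

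The largest endothelial-led cluster was marked by Nfasc, Lrg1, Stmn2 and Fbln5. It held 240 barcodes of library 1 and 29 of library 2. Fbln5 stood at 3496 and 3766 CPM inside it, against 1304 and 1204 in the remaining endothelial barcodes. Lrg1 stood at 1304 and 1298 CPM inside it, against 352 and 371. Inside it Mctp1, a calcium-binding membrane protein, stood at 507 and 288 CPM, and Tmem252 at 220.1 and 113.5 CPM. The libraries agreed closely on Fbln5 and Lrg1 and differed on Mctp1 and Tmem252.

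A second cluster was marked by Kif26b, Cdca7l, Col23a1 and the Wnt antagonist Sfrp1, with 180 and 58 barcodes. Sfrp1 stood at 2060.4 and 2099.7 CPM inside it, against 759 and 522 outside. Among list genes picked after their values were seen, Bmp6 stood at 1122 and 1281 CPM inside it, 2.09-fold over the other endothelial barcodes. The plasminogen activator gene Plat stood at 422 and 409 CPM, 2.36-fold, and Procr at 424 and 614 CPM, 2.04-fold. Plat starts the breakdown of clots and Procr aids the anticoagulant protein C in known physiology. Stmn2, which marked the first cluster, was low here at 87.5 and 45.9 CPM.

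The third was led by Klk10, a kallikrein-related peptidase that is known from endothelium under laminar flow, and by the basement membrane collagens Col4a3 and Col4a4. It held 129 barcodes of library 1 (11.66%) and 26 of library 2 (8.754%). Klk10 stood at 343 and 663 CPM inside it, against 14.0 and 33.3 in the remaining endothelial barcodes, and Klk8 at 172 and 258 CPM, against 22.3 and 21.7. Klk10 lies on chromosome 7 at 43781035 to 43785410 (GRCm38, plus strand). List genes outside the leading 10, chosen after their values were seen, were also high. Cytl1 reached 8169.9 and 8168.9 CPM, 4.08-fold over the other endothelial barcodes. Ptgs1, cyclooxygenase-1, stood at 278 and 363 CPM, 5.38-fold, and Thbd, the anticoagulant receptor thrombomodulin, at 189 and 229 CPM, 2.74-fold. The flow-responsive factors Klf2 and Klf4 stood at 514 and 554 CPM and at 544 and 321 CPM, 1.95-fold and 1.96-fold with both libraries summed. Over all endothelial barcodes Klf4 stood at 290 and 275 CPM, so its excess in library 2 was small. Nos3 stood at 401 and 546 CPM, 1.95-fold. Of 8 flow response genes at 50 CPM or more inside or outside the cluster, 2 were at least 2-fold higher and 0 at least 2-fold lower, beside 3.70% higher and 4.82% lower among all 3941 genes at that level. Lrg1 and Mctp1 were low in it at 93.4 and 258 CPM and at 50.5 and 20.8 CPM.

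Another cluster was led by Ubd, Sprr1a, Lipg, Cdkn2a and Angpt2, with 70 barcodes of library 1 (6.329%) and 16 of library 2 (5.387%), and matched the angiogenic list best, by 3 of 10 genes, of which only Angpt2 was among the leading 10. Ubd is a ubiquitin-like protein known to be induced by cytokines, Lipg is endothelial lipase, Cdkn2a encodes cell cycle inhibitors, and Angpt2 is an angiopoietin that antagonises Tek signalling in many settings. Ubd stood at 133 and 184 CPM inside it, against 6.23 and 0.713 in the remaining endothelial barcodes. Angpt2 stood at 221 and 118 CPM, against 16.6 and 18.5. Sprr1a differed between the libraries, at 80.8 CPM from 116 UMIs in library 1 and 0 UMIs in library 2. Outside the cluster it had 0 UMIs in library 1 and 11.1 CPM in library 2, so in library 2 it did not mark the cluster.

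Several endothelial genes were far lower in the Ubd-led cluster than in the other endothelial barcodes. These and the following list genes were chosen after their values were seen. Vwf was at 202 and 222 CPM, 0.174 of its level in the others. Cytl1 was at 389.6 and 337 CPM, 0.133 of that level, and Fbln5 at 298 and 93.8 CPM. Gja5 was at 67.6 and 146 CPM, and Stmn2 at 20.2 and 13.9 CPM. Of 15 arterial genes at 50 CPM or more in the cluster or in the others, 7 were at least 2-fold lower and 0 at least 2-fold higher, beside 5.12% lower and 2.93% higher among all 3961 genes at that level. Other genes stood higher there. Edn1 was at 1287 and 771 CPM, 2.40-fold over the others, and Emcn, the sialomucin endomucin, at 1139 and 611.5 CPM, 3.34-fold. Sele, which encodes E-selectin, was at 231 and 79.9 CPM, 2.14-fold. The chemokine gene Ccl2 was at 234 and 41.7 CPM, 4.32-fold. Dcn was at 3512 and 2877 CPM, 2.55-fold, so RNA of this fibroblast gene was also higher in the cluster, and its part in the pattern was not tested. Its median depth of 16511 UMIs was above that of the other endothelial-led clusters except the cycling one.

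One of the smaller clusters was angiogenic-like, with all 10 listed angiogenic genes at least 2-fold higher, and held 25 and 2 barcodes. Igfbp3, an IGF-binding protein, stood at 2610.0 and 3660 CPM inside it, against 10.2 and 27.7. Esm1, the endocan that marks tip cells in growing vessels, stood at 542 CPM from 124 UMIs and at 35.5 CPM from 1 UMI, so the level in library 2 rests on counts too few to read. Mgp was at 1014 and 35.5 CPM, and 13 of 14 large-artery genes at 50 CPM or more inside or outside the cluster were at least 2-fold lower, beside 10.2% of all 4297 genes at that level. Of 13 basement membrane genes, 9 were at least 2-fold higher, beside 9.56% of all genes, with Col4a1 at 1583 and 1599 CPM. Col4a1 is also on the angiogenic list that named the cluster, so this count in part restates that name.

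Another small cluster was led by Alpl, Nebl, Slc6a6 and the Notch ligand Jag2, and its best-matching list was the capillary one, by 6 of 15 genes. Only Rbp7 of that list was among the leading 10, with 1 UMI in library 2. Of 20 arterial genes, 7 were also at least 2-fold higher, and Jag2 of that list was among the leading 10. The cluster is thus called by its leading genes. It held 11 barcodes of library 1, or 0.9946% (0.4975 to 1.773), and 12 of library 2, or 4.04% (2.105 to 6.951). Fabp4 stood at 1644 and 1945 CPM inside it, 5.37-fold over the other endothelial barcodes, and Sema3g, an arterial semaphorin, at 437 and 656 CPM, 6.07-fold. Vwf was at 272 and 139 CPM, 0.194 of the level in the others. Of 13 immediate-early and heat shock genes, 6 were at least 2-fold higher, beside 8.00% of all 4085 genes at 50 CPM or more inside or outside the cluster, with Atf3 at 1644 and 1168 CPM. These genes are known to respond to tissue dissociation, and their part in the cluster was not tested.

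The last endothelial-led cluster was cycling-like, with 9 of 10 listed cycle genes at least 2-fold higher, in 16 barcodes of library 1 (1.447%, 0.8291 to 2.339) and 4 of library 2 (1.347%, 0.3681 to 3.412). Ube2c, a ubiquitin ligase partner of mitosis, stood at 514 and 427 CPM inside it, against 1.83 and 1.68. The proliferation marker Mki67 was found in 2.803% and 2.694% of thinned endothelial barcodes, against 2.553% and 2.245% of the other deep barcodes. Its median depth was 25400 UMIs, the highest of the 16 clusters.

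**Figure D4:**
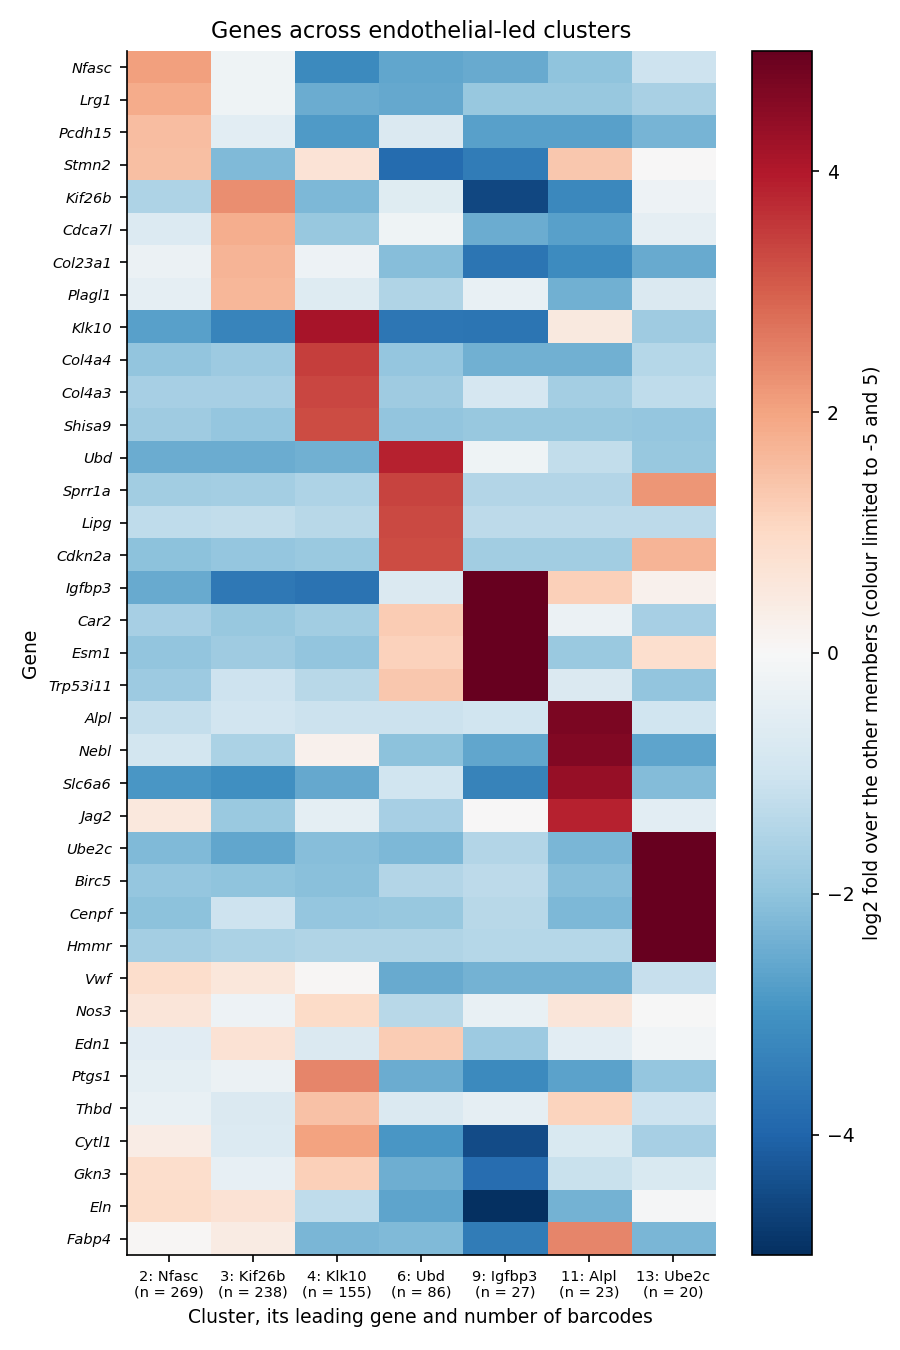
Log2 fold of genes (down) in each of the 7 endothelial-led clusters (across) over the other endothelial barcodes, both libraries summed, with the colour limited to -5 and 5. The leading 4 genes of each cluster form a diagonal of red, and the lower rows show Vwf low in the Ubd, Igfbp3 and Alpl clusters, Edn1 higher in the Ubd cluster and Ptgs1 and Cytl1 high in the Klk10 cluster.

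The 9 mixed clusters carried markers of other cells next to endothelial genes. The largest, led by Spp1, Myh11 and Itga8, held 196 barcodes of library 1 (17.72%, 15.51 to 20.1) and 132 of library 2 (44.44%, 38.71 to 50.3). Its median gate sum was 26.5 per 10000 UMIs, against 69.3 in the Nfasc-led cluster, and all 7 smooth muscle and all 7 fibroblast markers were at least 2-fold higher than in the other endothelial barcodes. Acta2 stood at 3252 and 4138 CPM inside it. Clusters that best matched T cells (90 and 16 barcodes), erythroid cells (34 and 1), neutrophils (31 and 0) and B cells (25 and 0) were smaller. The erythroid-matched cluster also had 8 of 8 macrophage markers at least 2-fold higher. The B cell-matched one also had 7 of 7 fibroblast and 4 of 5 Schwann markers at least 2-fold higher. Its fibroblast markers summed to 20047 CPM, against 492 CPM for its B cell markers. A cluster led by Lyve1, with 20 and 1 barcodes, carried markers of several types, with 4 of 6 lymphatic, 6 of 6 pericyte and 4 of 5 Schwann markers at least 2-fold higher, although the gate had removed barcodes with more than 1 of the 3 lymphatic genes. A count of 0 of 297 barcodes in library 2 allows a share of up to 1.234% by the exact interval.

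Between the libraries, few genes of the endothelial barcodes were 2-fold apart. Of 3846 genes at 50 CPM or more in at least 1 library, 9 (0.234%) were at least 2-fold higher in library 1 and 27 (0.702%) at least 2-fold higher in library 2, or 36 (0.936%) either way, with 5 CPM added to each side. The median log2 ratio of library 1 over library 2 was -0.03. Scaling by TMM, which is set by the bulk of the genes, moved every ratio by 0.17 on the log2 scale and turned these counts into 17 and 13, so the balance of the directions depends on the scaling. No difference here has a replicate check.

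**Figure D5:**
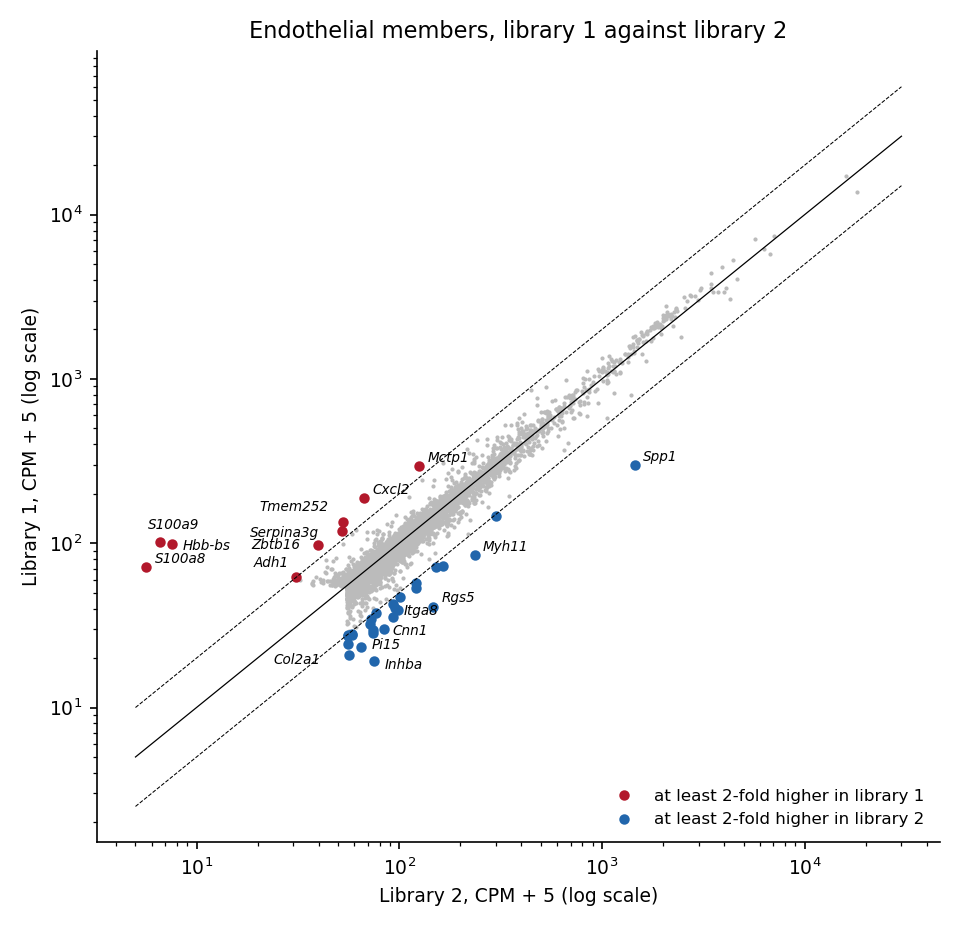
Level of each measured gene in endothelial barcodes of library 1 (vertical) against library 2 (horizontal), both as CPM plus 5 on log axes, with the line of equality and dashed lines at 2-fold. Red points are the 9 genes at least 2-fold higher in library 1 and blue points the 27 higher in library 2, and Spp1 lies at 293 CPM in library 1 and 1446 in library 2.

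Genes higher in library 1 differed in how high they stood over the other deep barcodes. Mctp1 stood at 291 CPM in library 1 and 120.0 in library 2, a ratio of 2.42 (2.18 to 2.70). Tmem252, a membrane protein, stood at 130.0 and 47.9 CPM, a ratio of 2.72 (2.30 to 3.24), and was found in 21.52% and 11.78% of thinned barcodes. Serpina3g, a protease inhibitor, stood at 114 and 47.2 CPM, a ratio of 2.42 (2.04 to 2.88), though near-identical Serpina3 genes make its counts uncertain. All 3 were at least 4-fold above the other deep barcodes in both libraries, although Tmem252 and Serpina3g were below 50 CPM in library 2. Adh1, an alcohol dehydrogenase, stood at 57.3 and 25.9 CPM, a ratio of 2.22 (1.76 to 2.82).

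Zbtb16 and Cxcl2 were not high over the other deep barcodes. Zbtb16, a zinc finger factor known to be induced by glucocorticoids, stood at 92.4 and 34.9 CPM in endothelial barcodes and at 86.8 and 42.3 CPM in the other deep barcodes of libraries 1 and 2. Cxcl2, a neutrophil chemokine, stood at 183 and 61.8 CPM in endothelial barcodes and at 599.6 and 247 CPM in the other deep barcodes. S100a8, S100a9 and the haemoglobin gene Hbb-bs, which has a near-identical copy, made up the rest. S100a9 stood at 97.0 and 1.62 CPM, but outside the neutrophil-matched cluster it stood at 5.73 and 1.62 CPM. Hbb-bs stood at 94.5 and 2.59 CPM, but at 2.36 and 2.59 CPM outside the erythroid-matched cluster. S100a9 and Hbb-bs lead these clusters, so their low levels outside follow in part from the clustering. In endothelial-led clusters 6 of the 9 genes were still 2-fold higher in library 1, with Mctp1 at 313 and 134 CPM, Tmem252 at 139 and 56.1 CPM, Zbtb16 at 93.0 and 29.4 CPM and Cxcl2 at 127 and 47.7 CPM. S100a9 is counted among the 6 at 5.62 CPM and 0 UMIs. All 9 stood higher in library 1 in the other deep barcodes as well, with Mctp1 at 44.1 and 16.4 CPM there.

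Genes higher in library 2 included 3 of 7 smooth muscle markers (Myh11, Cnn1 and Lmod1), the pericyte marker Rgs5 and the cartilage marker Col2a1. Of the 7 listed fibroblast markers 0 passed 2-fold, but the 6 measured had a median log2 ratio of -0.58, also towards library 2. Spp1, the osteopontin of modulated smooth muscle and macrophages, stood at 293 CPM in library 1 and 1446 in library 2, a ratio of 0.202 (0.194 to 0.211). Inside the Spp1-led mixed cluster it stood at 1529 and 5190 CPM, and outside that cluster at 156 and 56.3 CPM, where library 1 was the higher one. Spp1 leads that cluster, so its low level outside follows in part from the clustering. Myh11, smooth muscle myosin, stood at 79.3 and 231 CPM, Cnn1, calponin, at 25.2 and 79.2 CPM, and the mural gene Rgs5 at 36.1 and 142 CPM. Of the 27 genes, 26 were lower in endothelial barcodes than in the other deep barcodes in both libraries. In endothelial-led clusters Myh11 stood at 10.2 and 13.6 CPM and Rgs5 at 4.99 and 10.3 CPM. Both are on marker lists that set the mixed clusters apart, so these low levels follow in part from the definition. Of the 27 genes, 8 were still 2-fold higher in library 2 in endothelial-led clusters.

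Those 8 were Inhba, Col2a1, Npnt, Slc6a6, Nebl, Csmd1, Ank and Chpt1, named after their values were seen. Slc6a6, a taurine transporter, stood at 35.1 and 90.5 CPM in all endothelial barcodes and at 27.9 and 40.0 CPM outside the Alpl-led cluster. Nebl, a nebulin relative, stood at 19.3 and 50.8 CPM, and at 14.8 and 14.4 CPM outside that cluster. Inside that cluster they also differed, with Slc6a6 at 497 and 981 CPM and Nebl at 313 and 692 CPM. Since both lead the cluster, its share in the libraries was not compared. Csmd1, a complement-regulating membrane protein, stood at 48.7 and 116 CPM, and at 35.7 and 32.8 CPM outside the Ubd-led cluster, inside which it stood at 164 and 928 CPM. The Csmd1 excess of library 2 thus lay in the 16 barcodes of that cluster. Csmd1 is among its leading genes, so the low level outside it follows in part from the clustering. Inhba, the activin A subunit, stood at 7.35 and 63.1 CPM in the endothelial-led clusters.

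Adhesion and inflammation genes leaned towards library 1, in endothelial and in other barcodes. All 8 measured genes of the inflammation list had ratios above 1 with intervals that excluded 1, as had 663 of all 3846 measured genes (17.2%). Their median log2 ratio was 0.57 beside -0.03 for all measured genes, and only Cxcl2 passed 2-fold. Nfkbia, the NF-kappaB inhibitor that NF-kappaB induces, stood at 852 CPM in library 1 and 441 in library 2, a ratio of 1.93 (1.83 to 2.04). In the other deep barcodes it stood at 1060.0 and 556 CPM. Socs3, a cytokine signalling inhibitor, stood at 236 and 124 CPM, a ratio of 1.90 (1.71 to 2.12), against 249 and 183 CPM in the other deep barcodes. For Nfkbia and Socs3 the same direction was thus present in the other deep barcodes. Among adhesion genes, Sele stood at 116 and 55.9 CPM, a ratio of 2.07 (1.77 to 2.43) before and below 2-fold after 5 CPM was added. Icam1, the leukocyte integrin ligand, stood at 421 and 236 CPM, a ratio of 1.78 (1.65 to 1.93), and was found in 57.41% and 41.41% of thinned barcodes. Vcam1 stood at 977 and 663 CPM, a ratio of 1.47 (1.41 to 1.54), and Selp had a ratio of 1.44 (1.35 to 1.53). The 11 measured adhesion genes had a median log2 ratio of 0.27, and Jam2 alone of them had a ratio below 1, at 0.929 (0.840 to 1.03). Immediate-early genes, which are known to be raised by cell isolation, moved the same way, with a median log2 ratio of 0.44 over 13 genes and Fos at 1342 and 990.1 CPM. Their part in these differences was not tested.

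General and arterial endothelial genes had median log2 ratios near that of all measured genes, at 0.07 for 27 measured general genes and 0.00 for 15 arterial genes, while the 9 measured vasoactive genes had a median of 0.25. Cldn5 had a ratio of 1.00 (0.961 to 1.05), Bmp6 0.994 (0.949 to 1.04) and Mecom 0.995 (0.961 to 1.03). Klf2 stood at 275 CPM in library 1 and 363 in library 2, a ratio of 0.758 (0.709 to 0.811), and Nos3 had a ratio of 0.901 (0.833 to 0.975). Sox18, a transcription factor of endothelium, stood at 111 and 168 CPM, a ratio of 0.661 (0.598 to 0.731). Edn1 had a ratio of 1.49 (1.40 to 1.58), Gkn3 1.75 (1.56 to 1.97) and Cytl1 1.35 (1.31 to 1.39). None of the genes in this paragraph was 2-fold apart.

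Against the endothelial barcodes nearest in kind, the rule fixed the genes that separate them, and the contrasts below are descriptions. The lymphatic barcodes were 18 and 7, and of 3400 genes 158 (4.65%) were at least 4-fold higher in blood endothelial barcodes in both libraries, while 122 of 2912 (4.19%) were at least 4-fold higher in lymphatic ones. Cytl1 had 4 UMIs in the lymphatic barcodes of library 1 and 0 in those of library 2, and Bmp6 2 and 1. Sfrp1, at 1043 and 966.5 CPM in blood endothelial barcodes, had 0 UMIs in lymphatic ones of both libraries. Lyve1, the hyaluronan receptor of lymphatics, stood at 6.73 and 2.91 CPM in blood endothelial barcodes, against 1650 and 1234 CPM, and Igfbp5 at 62.4 and 85.0 CPM, against 4005 and 4463 CPM.

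The Ackr1 venular barcodes, 51 and 6 in number, were closer. Of 3400 genes, 12 (0.353%) were at least 4-fold higher in blood endothelial barcodes in both libraries, and 10 of 3176 (0.315%) were at least 4-fold higher in Ackr1 barcodes. Klk10 stood at 51.0 and 82.1 CPM in blood endothelial barcodes, against 7 UMIs and 0 UMIs in the Ackr1 barcodes. Several of the others, such as Col1a2, Myh11 and Postn, are stromal or smooth muscle genes. Fabp4 stood at 343 and 429 CPM in blood endothelial barcodes, against 1944 and 2353 CPM, the water channel gene Aqp1 at 268 and 189 CPM, against 1139 and 1385 CPM, and Cd36 at 3.12 and 1.62 CPM, against 103 and 259 CPM. With 6 Ackr1 barcodes in library 2, the values of that library rest on few cells.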

How the data were processed

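RNA of single aortic cells was captured in droplets with Chromium 3' v3 reagents (per the labels). The authors deposited 1 unfiltered matrix of raw UMI counts per gene and barcode, whose header gives Cell Ranger 6.0.1 as its writer. Per the submitters' processing notes, Seurat and bcl2fastq were also used, with the build mm10; no source used here gives the annotation. The libraries hold 110257209 and 124266676 UMIs.

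UMIs were summed over member barcodes in each library and given as CPM. Ratios and folds had 5 CPM added for the limits of 2-fold and 4-fold, and 50 CPM was the lower limit. Printed ratios and their intervals have nothing added. Intervals on CPM, ratios and shares are exact (scipy 1.17.1) at 95%. Detection shares were taken after thinning to 3000 UMIs per barcode. Members were scaled to 10000 counts, log-transformed and clustered in scanpy 1.11.5 (2000 variable genes, 20 components, 15 neighbours, Leiden resolution 0.5, seed 0). A cluster took a list's name when at least 3 markers reached 20 CPM and 2-fold over the other members. TMM factors came from edgeR 4.0.16 as an alternative.

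Named genes are the gate genes and Vwf, the 3 most abundant genes of each list, the 12 with the largest ratio each way, the 15 with the largest fold over other barcodes, and the 10 leading genes of each cluster and of each nearest group. These genes fell outside that rule and were chosen after their values were seen: Ace, Ank, Apoe, Atf3, Bgn, Bmp4, Ccl2, Chpt1, Cxcl12, Emcn, Erg, Fli1, Gkn3, Icam1, Nr2f2, Palmd, Plat, Ptgis, Ptgs1, Sema3g, Snai1, Snai2, Socs3, Sox18, Thbd and Twist1, and any list gene described in a cluster that it does not lead. Members and the 38 gene lists were chosen with earlier results of these data known. Gene positions were matched by identifier for 32235 of 32285 genes (99.8%). A gene among those measured is not reported here.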

Additional observations from a re-analysis of the deposited data

Results flagged for a closer look

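Barcodes below the depth limit also carried endothelial RNA, and none of them enters the comparisons above. Among barcodes of at least 1000 and under 3000 UMIs, 1414 of 10163 in library 1, or 13.91% (13.25 to 14.6), and 778 of 21962 in library 2, or 3.542% (3.302 to 3.795), met the same gate with its limits. They held Vwf at 599 CPM in library 1 and 599 in library 2, against 1122 and 1008.5 CPM in the deep endothelial barcodes. Cytl1 stood at 1918 and 1281 CPM. Acta2 stood at 2603 and 3604 CPM, against 795 and 1387 CPM in the deep ones.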

How the results depend on the processing

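No paired analysis was possible because each sample has 1 library and the libraries carry no replicate number or group. The share of deep barcodes that were endothelial was 15.29% in library 1 and 3.772% in library 2 at a minimum of 1000 UMIs, and 13.79% and 2.97% at a gate sum of 30 per 10000. The 9 genes higher in library 1 became 17 with TMM, 14 after thinning, 15 at 20 CPM and 18 without members holding 2 or more stromal marker UMIs per 1000. Over these settings the count of 201 genes 4-fold over the other deep barcodes ranged from 164 to 263. The 27 genes higher in library 2 became 6 at a gate sum of 30, 13 with TMM, 63 at 20 CPM, 15 without those members and 9 in endothelial-led clusters. The cause was not tested, except that at 20 CPM more genes are counted. With endothelial-led barcodes as the denominator the Alpl-led share of library 2 was 8.163%. Direction turned in 4 cases: Spp1 had a ratio of 1.139 at a gate sum of 30 and 1.489 in endothelial-led clusters, where Lmod1 had 1.139 and Ogn 1.456. Of 174 ratios over 22 genes and 8 settings, 106 stayed within the gene's counting interval, 64 moved outside it and 4 changed direction. The limit of 20 CPM changes no ratio, so 22 of the 106 could not have moved. For S100a9 no ratio was possible in 2 settings, where library 2 had 0 UMIs. The alternatives in endothelial-led clusters were added after the data were seen. Clusters led by Klk10, Ubd, Esm1 and Alpl were found in each of the other clustering settings run, although with 10 components 1 cluster joined the Ubd and Esm1 genes. With 1 library per sample, counting intervals say nothing of differences between animals.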
